A study of Homo sapiens with 6 samples.

Results

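Cholesterol and fatty acid synthesis was followed through 32 genes, the genes of the sterol regulatory element binding proteins (SREBPs) and of their regulators, with sterol and lipid synthesis targets, listed by symbol, out of 26485 gene names in the table. All 32 were listed and all passed the filter on low counts, as did 14877 genes in total. The counts come from RNA-seq of HEK293, a line derived from human embryonic kidney cells, in 3 cultures after knockdown of the long noncoding RNA *HSALNG0134318* and in 3 control cultures. Knockdown was by transient transfection of a Smart Silencer, which combines small interfering RNAs with antisense oligonucleotides against 1 transcript, while the labels give the controls as NC and as WT in the genotype and do not name what these cells received. In the labels' descriptions, knockdown replicates 1, 2 and 3 are KD-1, KD-4 and KD-5, and control replicates 1, 2 and 3 are NC-10, NC-11 and NC-1. The descriptions do not say what these numbers stand for. The study knocked this RNA down to ask which genes of kidney development respond to its loss. The table does not list *HSALNG0134318*, so the labels were not checked against its own level, and the silencing rests on 1 mixture in 1 cell line.

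Cholesterol and fatty acids are built from the same precursor, acetyl-CoA, and the genes of both pathways are switched on by SREBPs. These proteins are made as precursors in the membrane of the endoplasmic reticulum, where SCAP binds them and INSIG proteins hold SCAP back while sterols are plentiful. When sterols fall, SCAP takes the SREBP to the Golgi apparatus, proteases release its active domain, and that domain enters the nucleus and binds the promoters of its target genes, usually together with the factors NF-Y and SP1. SREBF2 is known mainly for the sterol genes and SREBF1 mainly for the fatty acid genes, and cultured cells depend on both because growing membranes need sterols and unsaturated fatty acids.

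Counts per culture ranged from 13900965 to 16869948. All 8 HEK293 markers examined were detected, at 95 to 13918 counts per culture and gene, and their sum was 22551 to 30759 in the knockdown cultures and 21901 to 28570 in the controls, with *LIN28B* called lower among them. Of 4 adipocyte markers *ADIPOQ* was at 0 in every culture and *CIDEC* at 0 in the knockdown cultures, while the sum, mostly *LPL*, was 165 to 191 against 245 to 262 and *LPL* fell, with a log2 fold change of -0.63 ± 0.16 (adjusted p = 0.0295). *PLIN1*, the other adipocyte marker tested, was not called and had 28 to 37 counts in the knockdown cultures and 15 to 25 in the controls, with a log2 fold change of 0.72 ± 0.30 (adjusted p = 0.148). The sums for blood (13 to 22 against 7 to 25), endothelium (3 to 11 against 3 to 12) and fibroblast markers (47 to 129 against 6 to 69) were low in both groups, and the part of these markers in the results was not tested. Control replicate 2 stood apart from the other controls, with a root mean square log2 difference over all genes of 0.445 and 0.486 from them, where knockdown cultures differed from each other by 0.271 to 0.315. The libraries also differed in how their counts followed GC content, from a slope of -0.098 on the log2 scale per 10 percentage points of GC in control replicate 3 to 0.14 in control replicate 2, with 0.068 in knockdown replicate 1. In bulk RNA, fewer cells of a type and less RNA per cell cannot be told apart.

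In the comparison of knockdown with control, 3 of the 32 genes rose and none fell by the edgeR quasi-likelihood F test at a Benjamini-Hochberg adjusted p under 0.05 over all tested genes. *MVD* rose by 48.5%, *ACACA* by 36.1% and *FDPS* by 26%. Among all tested genes 5.4% were called higher and 4.64% lower, so the share of these 32 genes called in either direction, 9.38%, stood near that of all genes, 10%. At an unadjusted p under 0.05 there were 4 higher and 5 lower genes, and DESeq2 called the same 3 genes higher and 2 genes, *HMGCS1* and *MSMO1*, lower. The log2 fold changes were negative for 19 of the 32 genes and positive for 13, with a median of -0.039 against -0.02 over all tested genes, and their median size was 0.17 against 0.2. The 3 knockdown values lay wholly above or below the 3 control values for 10 of the 32 genes (31.2%), 6 of them lower and 4 higher, and the same held for 32.2% of all tested genes. The count of calls changed with single cultures. Without knockdown replicate 1 edgeR called none of the 32 (4 lower and 3 higher at an unadjusted p under 0.05), and without control replicate 2 there were 4 higher and 4 lower. Calls over all genes moved too, from 690 lower and 804 higher with all 6 cultures. They were 252 and 341 of 15126 without knockdown replicate 1, and 1238 and 1274 of 15083 without control replicate 2.

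**Figure D1:**
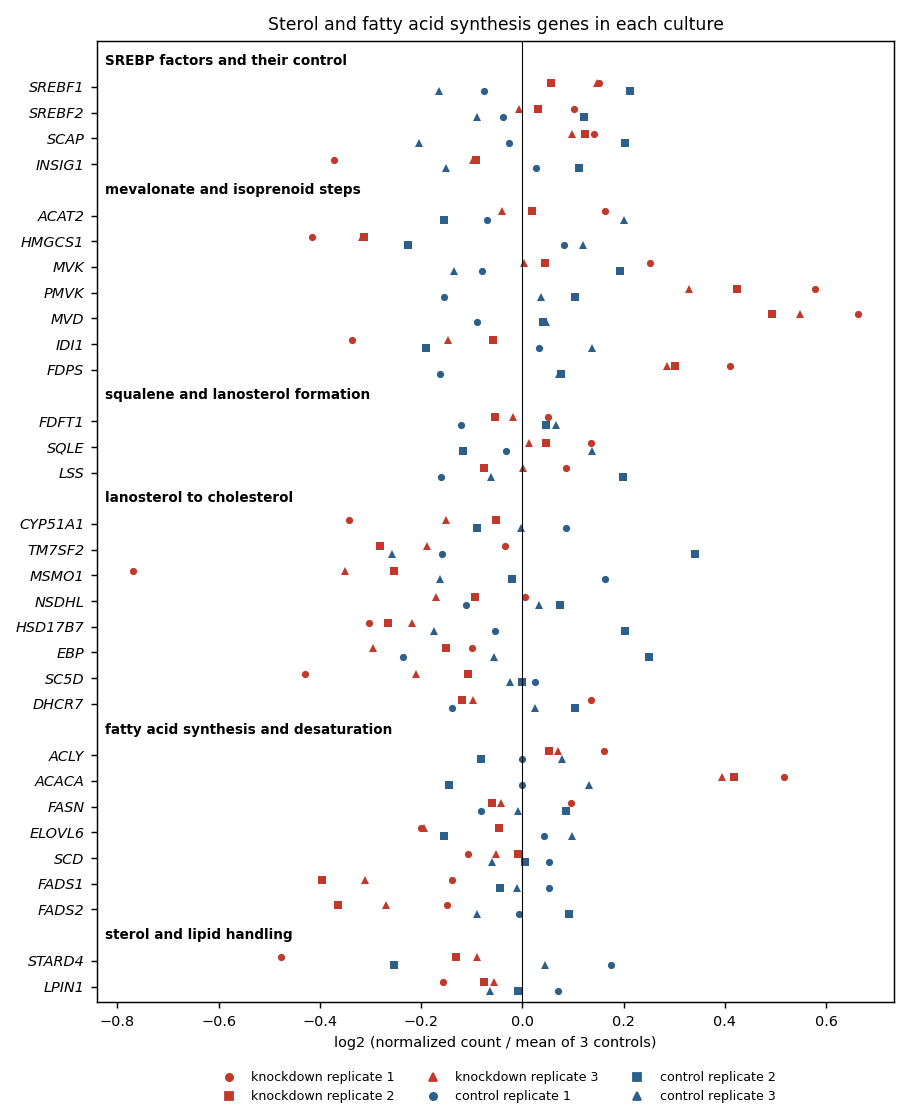
The horizontal axis is the log2 ratio of a culture's normalized count to the mean of the 3 controls, for 31 of the 32 genes in 6 groups by role (*ABCA1*, with 1 to 17 counts, is left out), with red symbols for the knockdown cultures and blue symbols for the controls. The red symbols of *MVD*, *ACACA* and *FDPS* lie to the right of every control and those of *HMGCS1*, *MSMO1* and *FADS1* to the left.

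Throughout, normalized counts are counts rescaled to a common effective library size (the mean of the 6), the values of a group follow in the order of replicates 1, 2 and 3, and a range given for a gene is one of normalized counts. Fold changes are log2 values of knockdown against control with their standard error (SE), written as ± where no interval is given.

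The regulators of the pathway did not pass the test. *SREBF2*, the factor of the sterol genes, had normalized counts of 4110.2, 3913 and 3809 in the knockdown cultures and 3726, 4163 and 3596 in the controls. The groups overlapped, and the log2 fold change was 0.043 (SE 0.089, 95% interval -0.15 to 0.24, adjusted p = 0.801). For *SREBF1*, the factor of the fatty acid genes, the values were 1055, 987 and 1051 in the knockdown cultures and 901, 1100.5 and 847 in the controls, with control replicate 2 above every knockdown culture. Its log2 fold change was 0.12 ± 0.11 (adjusted p = 0.543). *SCAP*, which escorts SREBPs to the Golgi apparatus, had normalized counts of 1419, 1401 and 1376 in the knockdown cultures and 1262, 1479 and 1116 in the controls, again with control replicate 2 the highest of all 6, and a log2 fold change of 0.12 ± 0.11 (adjusted p = 0.513). *INSIG1*, which retains SCAP and is itself an SREBP target, had normalized counts of 1723, 2092 and 2085 in the knockdown cultures and 2270.3, 2409 and 2008 in the controls. Its lowest value was in knockdown replicate 1, and knockdown replicates 2 and 3 lay among the controls. The log2 fold change was -0.18 (SE 0.11, 95% interval -0.41 to 0.051, adjusted p = 0.303). The intervals of these 4 genes leave room for changes of up to 0.41 in size on the log2 scale.

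Promoter sequence was available from RefSeq (GRCh38.p14) for 28 of the 32 genes in 39 windows of 300 bases, each running from 250 bases before to 50 after a transcription start. *ACAT2*, *FASN*, *FDFT1* and *SQLE* had no window. A sterol regulatory element, searched as TCACNCCAC on both strands, was found in the window of *SREBF2* alone, which makes 2.56% of the 39 windows against 1.13% of all 35116 windows. The NF-Y box, searched as CCAAT on both strands, was in 61.5% of these windows, covering 20 of the 28 genes, against 34.6% of all windows. The GC box bound by SP1, searched as GGGCGG on both strands, was in 87.2% against 45% and in 27 genes. The E-box, searched as CACGTG, which SREBPs can also bind and which reads the same on both strands, was in 15.4% against 7.26%, in *ABCA1*, *INSIG1*, *LSS*, *SC5D* and *SCAP*. The 35116 windows were not matched to those of these genes for expression or GC content. Windows of 1 gene can overlap, and the letters searched for the sterol element are a narrow form of a variable motif. The stretches below are for *SREBF2*, the gene with the sterol element, for *MVD* and *FDPS*, which rose, and for *HMGCS1* and *MSMO1*, the sterol genes with the most negative fold changes. Each runs 5′ to 3′ on the strand of its gene, before the start and outside the exons of coding genes in GENCODE, and capitals mark the sterol regulatory element in *SREBF2* and NF-Y boxes, which read ATTGG when they lie on the other strand.
*SREBF2*, chr22:41832855-41833104, plus strand: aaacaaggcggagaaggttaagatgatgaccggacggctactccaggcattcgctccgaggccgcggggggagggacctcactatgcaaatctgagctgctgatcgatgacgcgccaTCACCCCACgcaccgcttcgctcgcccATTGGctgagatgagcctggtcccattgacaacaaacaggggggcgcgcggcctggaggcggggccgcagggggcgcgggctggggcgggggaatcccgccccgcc
*MVD*, chr16:88663162-88663341, minus strand: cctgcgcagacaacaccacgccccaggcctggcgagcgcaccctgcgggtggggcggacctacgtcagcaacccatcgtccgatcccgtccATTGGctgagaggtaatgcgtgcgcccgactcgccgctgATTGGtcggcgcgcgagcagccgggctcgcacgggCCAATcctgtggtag
*FDPS*, chr1:155308616-155308747, plus strand: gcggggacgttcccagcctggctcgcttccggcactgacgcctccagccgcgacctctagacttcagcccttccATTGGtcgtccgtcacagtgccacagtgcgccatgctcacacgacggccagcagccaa
*HMGCS1*, chr5:43313513-43313662, minus strand: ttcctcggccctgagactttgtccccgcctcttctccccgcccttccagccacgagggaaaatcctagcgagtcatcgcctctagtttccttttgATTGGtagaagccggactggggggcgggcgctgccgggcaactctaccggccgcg
*MSMO1*, chr4:165327419-165327666, plus strand: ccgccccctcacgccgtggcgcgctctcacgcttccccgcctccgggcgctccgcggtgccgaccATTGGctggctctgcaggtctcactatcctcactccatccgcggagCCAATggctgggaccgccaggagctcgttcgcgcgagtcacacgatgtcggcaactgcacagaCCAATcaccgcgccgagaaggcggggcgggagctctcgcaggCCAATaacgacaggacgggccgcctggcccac
Each stretch came from the first window of its gene that held an NF-Y box, so every gene shown carries the box by choice of window. Over these whole windows, *MSMO1* held 4 NF-Y boxes, *MVD* and *FDPS* 3 each, *HMGCS1* 2 and *SREBF2* 1. Another window of *HMGCS1* held none. Whether the boxes relate to the fold changes was not tested.

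The early steps of sterol synthesis, which turn acetyl-CoA into mevalonate and then into the isoprenoid farnesyl diphosphate, held 2 of the 3 calls. Of 7 genes, *MVD* and *FDPS* rose and none fell, and the groups did not overlap for these, for *PMVK* or for *HMGCS1*. *MVD* (chr16:88651935-88663161, minus strand) encodes the decarboxylase that forms isopentenyl diphosphate. Its normalized counts were 649, 577 and 599 in the knockdown cultures and 385, 421 and 423 in the controls. Every knockdown culture was above every control, and the group means were 608 ± 36.8 against 409.6 ± 21.6 (SD, n = 3 per group). The log2 fold change was 0.57 (SE 0.11, 95% interval 0.33 to 0.81, adjusted p = 0.00867). Of the 15 alternatives, 14 called it, the exception being the fit without knockdown replicate 1 (log2 fold change 0.52, adjusted p = 0.0503).

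*FDPS* (chr1:155308748-155320666, plus strand) encodes farnesyl diphosphate synthase, which joins isoprenoid units into the precursor of squalene and of protein prenylation. Its normalized counts were 2134, 1979 and 1958 in the knockdown cultures and 1436, 1693 and 1689 in the controls. The groups were apart, with control replicate 1 the lowest of the 6. The means were 2024 ± 96.2 against 1606 ± 148 (SD, n = 3 per group), and the log2 fold change was 0.33 (SE 0.095, 95% interval 0.13 to 0.54, adjusted p = 0.0469). The call was kept in 10 of 15 alternatives. It was lost without any 1 of the 3 knockdown replicates or control replicate 1, with log2 fold changes from 0.26 to 0.36 and adjusted p from 0.134 to 0.169, and in the fit with a replicate block (adjusted p = 0.0973). An antisense gene, *RUSC1-AS1*, covers 18.64% of the exon bases of *FDPS*, and while the libraries were made with a stranded kit, the strand setting of the counting is not given in the sources used here.

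*PMVK*, the kinase that acts just before *MVD*, had normalized counts of 217, 195 and 182 in the knockdown cultures and 131, 156 and 149 in the controls, without overlap. Its log2 fold change of 0.45 (SE 0.15, 95% interval 0.12 to 0.78, adjusted p = 0.0855) did not pass the test. Of the 15 alternatives 2 called it, the fit without control replicate 2 (0.5, adjusted p = 0.0416) and the fit after correction of the libraries' trends with GC content and length (0.49, adjusted p = 0.0362). *MVK*, the kinase before it, ranged from 308 to 366 in the knockdown cultures and from 279.8 to 352 in the controls, with a log2 fold change of 0.10 ± 0.14 (adjusted p = 0.67).

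*HMGCS1*, which condenses acetyl-CoA and acetoacetyl-CoA on the way to mevalonate, had a fold change of the opposite sign. Its normalized counts were 5219, 5607 and 5588 in the knockdown cultures and 7367, 5954 and 7566 in the controls. All controls were above all knockdown cultures, but control replicate 2 stood much nearer to the knockdown group than the other controls did. The log2 fold change was -0.35 (SE 0.10, 95% interval -0.58 to -0.12, adjusted p = 0.0572), outside the threshold. It was called lower in 4 of the 15 alternatives, which were the fit without control replicate 2 (log2 fold change -0.45, adjusted p = 0.000714), the GC and length correction (-0.28, adjusted p = 0.0155), the fit with no filter (adjusted p = 0.0298) and DESeq2 (adjusted p = 0.031). A long noncoding RNA gene on the opposite strand, ENSG00000261604, covers 37.68% of the exon bases of *HMGCS1*. Its part in these counts was not tested.

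The remaining genes of these steps were *ACAT2*, the thiolase that forms acetoacetyl-CoA, and *IDI1*, the isomerase between *MVD* and *FDPS*. *ACAT2* ranged from 1900.1 to 2186 in the knockdown cultures and from 1756 to 2244 in the controls, with a log2 fold change of 0.051 ± 0.11 (adjusted p = 0.807) that turned negative without knockdown replicate 1 or control replicate 2. *TCP1*, on the opposite strand, shares 17.2% of its exon bases. *IDI1* ranged from 1478 to 1793 in the knockdown cultures and from 1636 to 2054 in the controls, with a log2 fold change of -0.18 ± 0.11 (adjusted p = 0.334), and *IDI2-AS1* shares 14.97% of its exon bases.

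For the steps that form squalene and lanosterol, no fold change was larger than 0.066 in size. *FDFT1*, the squalene synthase, ranged from 2381 to 2561 in the knockdown cultures and from 2273 to 2589 in the controls, with a log2 fold change of -0.0064 (SE 0.088, 95% interval -0.20 to 0.19, adjusted p = 0.973). *SQLE*, the epoxidase that is a control point of the pathway, ranged from 2015 to 2192 in the knockdown cultures and from 1841 to 2196 in the controls, with a log2 fold change of 0.066 (SE 0.093, 95% interval -0.14 to 0.27, adjusted p = 0.691). *LSS*, which closes the sterol rings, ranged from 2134 to 2389 in the knockdown cultures and from 2014 to 2582 in the controls, with a log2 fold change of 0.0049 (SE 0.11, 95% interval -0.23 to 0.24, adjusted p = 0.983). The signs of *FDFT1* and *LSS* changed with the settings.

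The 8 genes that turn lanosterol into cholesterol all had negative fold changes, with a median of -0.18, but *TM7SF2* turned positive without control replicate 2 and *DHCR7* without knockdown replicate 2 or 3 or control replicate 2. None of the 8 passed the test. Groups did not overlap for *MSMO1*, *SC5D* and *HSD17B7*. *MSMO1*, an oxygenase that removes methyl groups from the sterol ring, had normalized counts of 613, 876 and 819 in the knockdown cultures and 1170.4, 1030.0 and 933 in the controls. Knockdown replicate 1 was the lowest by a wide margin. The log2 fold change was -0.44 (SE 0.14, 95% interval -0.75 to -0.14, adjusted p = 0.0696). It was called lower in 5 of 15 alternatives, those without filter (adjusted p = 0.0258), with DESeq2 (0.0328), without control replicate 2 (0.0327) or 3 (0.0496) and with the GC and length correction (0.046). *SC5D*, a sterol desaturase near the end of the pathway, had normalized counts of 1496, 1869 and 1741 in the knockdown cultures and 2048, 2013 and 1982 in the controls. The controls lay close together and the knockdown cultures were spread below them, with knockdown replicate 1 lowest. Its log2 fold change was -0.24 (SE 0.10, 95% interval -0.46 to -0.03, adjusted p = 0.136), and it was called in none of the 15 alternatives.

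*HSD17B7*, a reductase that works with *MSMO1*, had normalized counts of 204, 209.7 and 217 in the knockdown cultures and 243, 290.1 and 223 in the controls, and its log2 fold change was -0.26 ± 0.14 (adjusted p = 0.264). *NSDHL*, the dehydrogenase of the same demethylation, ranged from 787 to 889 in the knockdown cultures and from 819 to 932 in the controls, with a log2 fold change of -0.084 ± 0.10 (adjusted p = 0.637). *CYP51A1*, which removes the methyl group before them, ranged from 1335 to 1632 in the knockdown cultures and from 1590.5 to 1796 in the controls, with a log2 fold change of -0.18 ± 0.10 (adjusted p = 0.285). *EBP*, the sterol isomerase, and *TM7SF2*, a sterol reductase, each had their highest value in control replicate 2. *EBP* ranged from 535 to 612 in the knockdown cultures and from 557 to 780.1 in the controls, with a log2 fold change of -0.18 ± 0.13 (adjusted p = 0.42), and *TM7SF2* ranged from 429 to 509 in the knockdown cultures and from 436 to 660.5 in the controls, with a log2 fold change of -0.17 ± 0.16 (adjusted p = 0.541). *DHCR7*, which makes the last reduction of this branch, ranged from 1611 to 1921 in the knockdown cultures and from 1589.8 to 1879.6 in the controls, with a log2 fold change of -0.023 ± 0.10 (adjusted p = 0.915), and was called in no alternative.

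**Figure D2:**
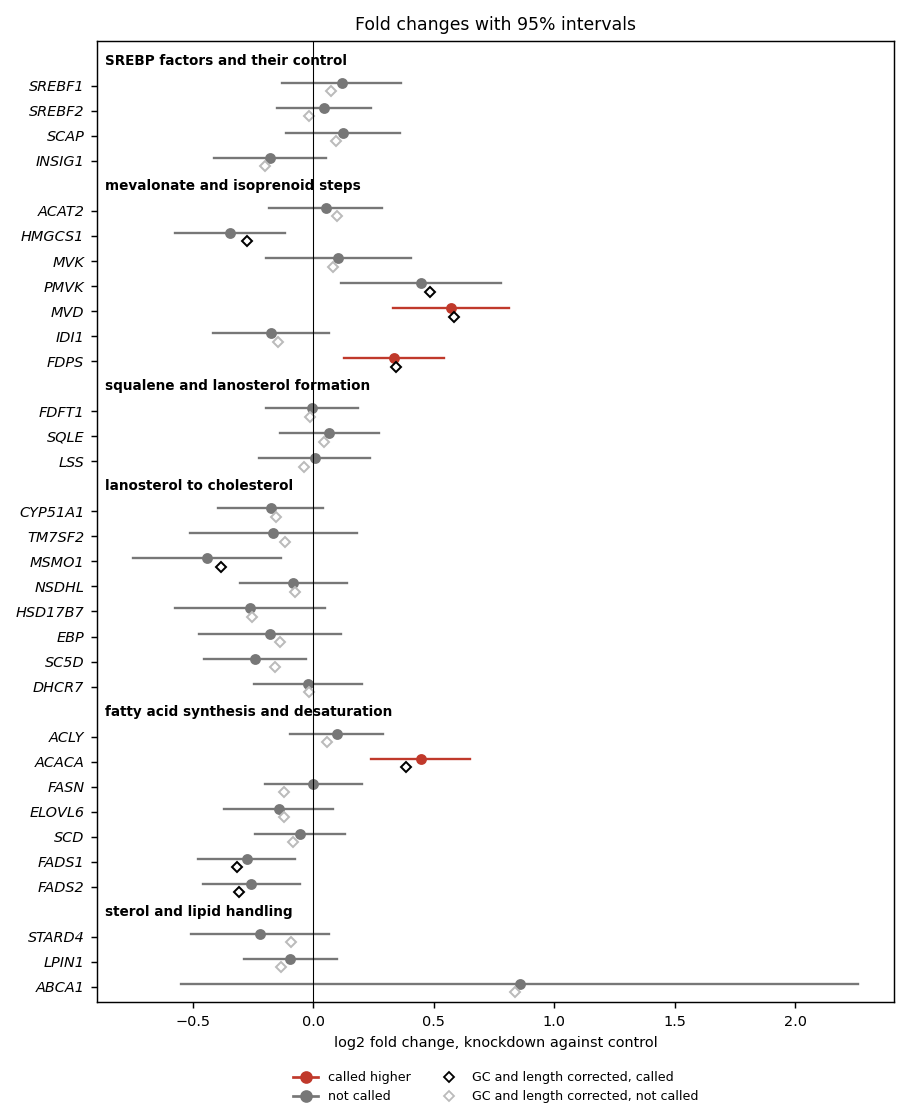
The horizontal axis is the log2 fold change of knockdown against control for each of the 32 genes, with circles and bars for the estimate and its 95% interval (red where called higher, grey where not called) and diamonds for the estimate after GC and length correction (black outline where called). *MVD*, *ACACA* and *FDPS* are the red genes, and the correction adds *PMVK*, *HMGCS1*, *MSMO1*, *FADS1* and *FADS2* to the calls.

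Among the fatty acid genes 1 of 7 rose and none fell. *ACACA* (chr17:37084992-37406836, minus strand) encodes acetyl-CoA carboxylase, which makes the malonyl-CoA that fatty acid synthase extends. Its normalized counts were 5668, 5296 and 5209.6 in the knockdown cultures and 3958, 3585 and 4344 in the controls, so the lowest knockdown culture stood above the highest control. The means were 5391 ± 243 against 3962 ± 379 (SD, n = 3 per group), and the log2 fold change was 0.44 (SE 0.094, 95% interval 0.24 to 0.65, adjusted p = 0.0136). The call was kept in 11 of 15 alternatives. It was lost without any 1 of the 3 knockdown replicates or control replicate 1, with log2 fold changes from 0.41 to 0.47 and adjusted p from 0.0536 to 0.0763.

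The enzymes on either side of *ACACA* did not pass the test. *ACLY*, which makes acetyl-CoA from citrate in the cytosol, ranged from 10908 to 11756 in the knockdown cultures and from 9927 to 11096 in the controls, with a log2 fold change of 0.10 (SE 0.088, 95% interval -0.10 to 0.29, adjusted p = 0.524). *FASN*, the synthase itself, ranged from 21084 to 23472 in the knockdown cultures and from 20754 to 23324 in the controls. The FASN means were 21969.7 ± 1308 against 21973 ± 1290.3 (SD, n = 3 per group), and the log2 fold change of -0.00022 had an interval from -0.2 to 0.2. *SCD*, which desaturates the saturated products, ranged from 12782 to 13689.7 in the knockdown cultures and from 13210.4 to 14276 in the controls, with a log2 fold change of -0.055 (SE 0.086, 95% interval -0.24 to 0.13, adjusted p = 0.724). *ELOVL6*, which lengthens them, ranged from 931 to 1037 in the knockdown cultures and from 962 to 1146 in the controls, with a log2 fold change of -0.15 ± 0.10 (adjusted p = 0.397).

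*FADS1* and *FADS2*, the desaturases of polyunsaturated fatty acids, lie side by side on opposite strands of chromosome 11 and share 4.79% of the exon bases of *FADS1*. *FADS1* had normalized counts of 2212, 1852 and 1966 in the knockdown cultures and 2528, 2365 and 2418 in the controls. *FADS2* had normalized counts of 2685, 2314 and 2470.1 in the knockdown cultures and 2963, 3173 and 2797 in the controls. For both genes every control was above every knockdown culture, and knockdown replicate 1 was the nearest to the controls. The log2 fold changes were -0.28 (SE 0.092, 95% interval -0.48 to -0.076, adjusted p = 0.0803) for *FADS1* and -0.26 (SE 0.092, 95% interval -0.46 to -0.057, adjusted p = 0.0987) for *FADS2*. Neither was called. *FADS1* was called lower in 3 and *FADS2* in 2 of the 15 alternatives, among them for both the GC and length correction (-0.32, adjusted p = 0.0126 and -0.31, adjusted p = 0.007).

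The last 3 genes handle sterols and lipids after synthesis, and none passed the test. *STARD4*, which carries cholesterol between membranes, had normalized counts of 1297, 1647 and 1696 in the knockdown cultures and 2038, 1515 and 1862 in the controls. Its groups overlapped through control replicate 2, the lowest of the controls. The log2 fold change was -0.22 ± 0.13 (adjusted p = 0.306), and 1 of the 15 alternatives called it, the fit without control replicate 2 (-0.34, adjusted p = 0.0404). The value was -0.11 without knockdown replicate 1 (adjusted p = 0.676) and -0.095 after the GC and length correction (adjusted p = 0.4). *LPIN1*, a phosphatidate phosphatase, ranged from 1221 to 1311 in the knockdown cultures and from 1303 to 1429.5 in the controls, with a log2 fold change of -0.10 ± 0.087 (adjusted p = 0.521). *ABCA1*, the cholesterol exporter, known mainly as a target of the sterol-sensing receptor LXR, had raw counts of 8, 10 and 17 in the knockdown cultures and 7, 1 and 12 in the controls. The groups overlapped, and at these counts the interval of its log2 fold change, 0.86 (SE 0.64, 95% interval -0.55 to 2.26, adjusted p = 0.426), spanned both directions.

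The order of levels, in CPM per kilobase of exon (CPM being counts scaled by the effective library size), was led by fatty acid genes. In the controls *SCD* stood at 175 ± 6.78 (SD, n = 3), *FASN* at 157 ± 9.2 and *ACLY* at 134 ± 7.46, and the ranges of neighbours did not overlap in these controls down to the seventh gene. *HMGCS1* followed at 69.8 ± 8.82, *ACAT2* at 49.2 ± 6.48, *INSIG1* at 40.6 ± 3.71 and *FDFT1* at 32.3 ± 2.26. From *FDFT1* to *SC5D* at 13.3 ± 0.219 every neighbouring pair overlapped, which includes *SREBF2* at 31.6 ± 2.45. The lower end held *SREBF1* at 7.66 ± 1.08, *MVD* at 5.77 ± 0.304, *HSD17B7* at 3.5 ± 0.477, *MVK* at 2.27 ± 0.285 and *ABCA1* at 0.0398 ± 0.0336. In the knockdown cultures *MVD* stood at 8.57 ± 0.518, *FDPS* at 36.2 ± 1.72 against 28.7 ± 2.64 in the controls, and *ACACA* at 27.5 ± 1.24 against 20.2 ± 1.94.

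**Figure D3:**
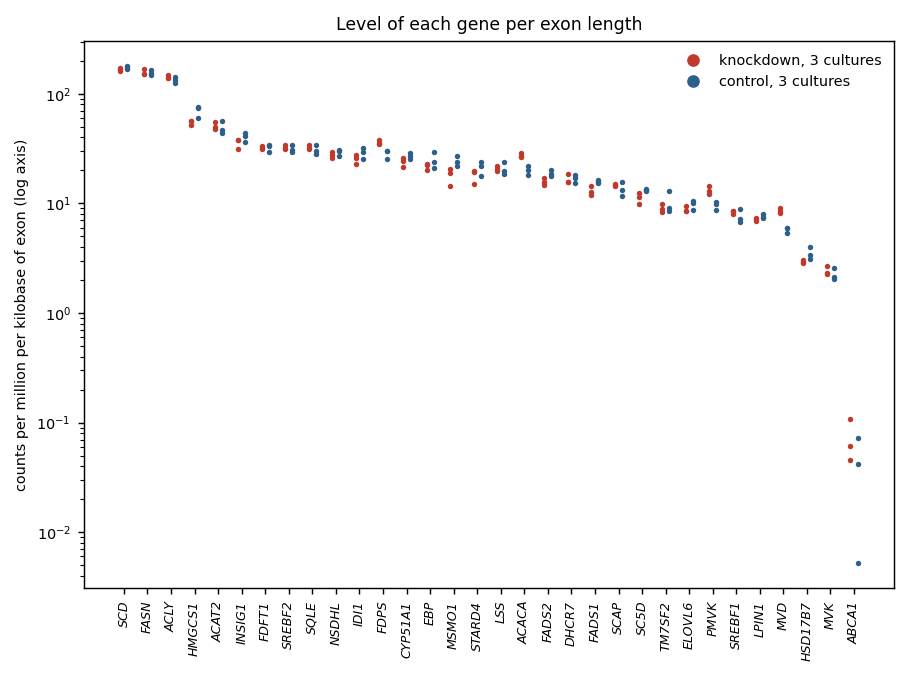
The vertical axis, on a log scale, is the level in CPM per kilobase of exon in each culture (red for knockdown, blue for control), with the 32 genes ordered by their mean in the controls. *SCD*, *FASN* and *ACLY* lie above 100, *ABCA1* lies below 1, and the red points of *FDPS*, *ACACA* and *MVD* lie above the blue ones.

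Within each group, the order of the cultures differed between genes with more and with less GC in their transcripts. Knockdown replicate 1 was the highest of the knockdown cultures for all 16 genes above the median GC content (49.3% to 65.3%), and the lowest for 12 of the 16 below it (34.4% to 48.9%). Control replicate 2 was the highest control for 13 of the 16 genes with more GC and the lowest for 9 of the 16 with less. Of the genes above the median, 9 had positive and 7 negative fold changes, and of those below it 4 had positive and 12 negative, among them *STARD4*, *SC5D*, *MSMO1* and *HMGCS1*, the 4 genes with the least GC. After the GC and length correction 7 and 4 were positive, and 4 genes were called higher (*PMVK*, *MVD*, *FDPS* and *ACACA*) and 4 lower (*HMGCS1*, *MSMO1*, *FADS1* and *FADS2*), while calls over all 14471 genes with known GC also rose, to 1316 higher and 1397 lower. What sets the libraries' GC trends was not tested.

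A further 82 genes of these pathways were listed by role, with earlier results of these data known, so the shares below are description only. Of the 82, 81 were tested (*ELOVL3* did not pass the filter), 12 fell and 5 rose, and 21% were called against 10% of all tested genes. Their median log2 fold change was -0.13 and 38 of the 81 had groups that did not overlap (46.9% against 32.2%). Leaving out any 1 of the knockdown cultures or control replicate 1 gave 5 lower and 2 or 3 higher, and leaving out control replicate 2 gave 17 lower and 7 higher.

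Among 12 genes of SREBP processing and sterol sensing, 2 rose and 2 fell. *ERLIN2*, a membrane protein of the endoplasmic reticulum that takes part in the breakdown of sterol-regulated proteins, had normalized counts of 1510.5, 1641 and 1593 in the knockdown cultures and 762, 683 and 903 in the controls. Its level was higher in every knockdown culture, with a log2 fold change of 1.02 (SE 0.11, 95% interval 0.77 to 1.26, adjusted p = 0.000365), and it was called in all 15 alternatives. *INSIG2*, the close relative of *INSIG1*, had normalized counts of 258, 294 and 295 in the knockdown cultures and 487, 453 and 373 in the controls, and fell, with a log2 fold change of -0.63 ± 0.13 (adjusted p = 0.0139). *RNF145* and *RNF139* encode ubiquitin ligases of the same membrane, and they moved in opposite directions. *RNF145* had normalized counts of 2552, 2446 and 2326 in the knockdown cultures and 1793, 1875 and 1858 in the controls, and rose, with a log2 fold change of 0.41 ± 0.083 (adjusted p = 0.0112), while *RNF139* had normalized counts of 400.0, 421 and 426 in the knockdown cultures and 558, 557 and 544 in the controls, and fell, with a log2 fold change of -0.41 ± 0.11 (adjusted p = 0.0305). The call held in 13 of 15 alternatives for *RNF145*, in 11 for *INSIG2* and in 10 for *RNF139*, and each was lost when single cultures were left out. The difference between *INSIG1* and *INSIG2* was not tested.

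In other sterol and isoprenoid synthesis, 1 of 12 genes fell and 1 rose. The table's *C14orf1*, now named ERG28, encodes a scaffold of the sterol demethylation enzymes to which *MSMO1*, *NSDHL* and *HSD17B7* belong. It had normalized counts of 312, 281 and 291 in the knockdown cultures and 587, 627 and 756 in the controls. All knockdown cultures lay below every control, with a log2 fold change of -1.15 (SE 0.13, 95% interval -1.44 to -0.87, adjusted p = 0.000384), and it was called in all 15 alternatives. *PDSS2*, a subunit of the enzyme that makes the side chain of coenzyme Q, had normalized counts of 341, 305 and 324 in the knockdown cultures and 182, 201 and 274 in the controls, and rose, with a log2 fold change of 0.57 ± 0.16 (adjusted p = 0.048). Among 16 genes of cholesterol transport, esterification and LXR, *OSBP*, a sterol carrier between membranes, rose, with a log2 fold change of 0.43 ± 0.10 (adjusted p = 0.0229), and *LIPA*, the lysosomal acid lipase, fell, with a log2 fold change of -0.35 ± 0.088 (adjusted p = 0.0283). The calls of *PDSS2*, *OSBP* and *LIPA* held in 11, 11 and 9 of the 15 alternatives.

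The list of other genes of fatty acid synthesis, elongation and desaturation held 5 that fell and 1 that rose among 20 tested. *SCD5*, the other human stearoyl-CoA desaturase, had normalized counts of 339, 364 and 357 in the knockdown cultures and 615, 707 and 605 in the controls. It fell, with a log2 fold change of -0.86 (SE 0.11, 95% interval -1.11 to -0.61, adjusted p = 0.00114), where *SCD* had one of -0.055 ± 0.086 (adjusted p = 0.724), and the difference between them was not tested. *ELOVL7*, an elongase, had normalized counts of 461, 535 and 556 in the knockdown cultures and 992, 868 and 877 in the controls, and fell, with a log2 fold change of -0.82 ± 0.11 (adjusted p = 0.00142). *ELOVL4*, another elongase, fell, with a log2 fold change of -0.43 ± 0.11 (adjusted p = 0.0278). *ME1*, the cytosolic malic enzyme that supplies NADPH for lipid synthesis, had normalized counts of 1007, 1024 and 991 in the knockdown cultures and 507, 551 and 706 in the controls, and rose, with a log2 fold change of 0.78 ± 0.13 (adjusted p = 0.00331). *ELOVL5* and *HACD2*, which also act in elongation, were the other called genes of the list, named after their values were seen, and fell, with log2 fold changes of -0.33 ± 0.088 (adjusted p = 0.0366) and -0.47 ± 0.13 (adjusted p = 0.0457).

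Of 21 genes of acyl-CoA and glycerolipid synthesis, 3 fell and none rose. *LCLAT1*, an acyltransferase of phospholipid synthesis and remodelling, had normalized counts of 417, 526 and 539 in the knockdown cultures and 1085, 768 and 968 in the controls, and fell, with a log2 fold change of -0.93 ± 0.15 (adjusted p = 0.00289). *AGPAT5*, an acyltransferase that makes phosphatidic acid, had normalized counts of 776, 804 and 815 in the knockdown cultures and 1299, 1307 and 1065 in the controls, and fell, with a log2 fold change of -0.62 ± 0.11 (adjusted p = 0.00455). *ACSL6*, which activates long-chain fatty acids, had normalized counts of 57.8, 64.7 and 68.7 in the knockdown cultures and 114, 113 and 90.5 in the controls, and fell, with a log2 fold change of -0.74 ± 0.19 (adjusted p = 0.0333). For *LCLAT1* and *AGPAT5*, as for *SCD5*, *ELOVL7* and *ME1*, the call held in all 15 alternatives. It held in 10 for *ACSL6* and *ELOVL4*, in 9 for *ELOVL5* and in 8 for *HACD2*, and each of these 4 was lost without any 1 of the knockdown replicates and without control replicate 1.

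**Figure D4:**
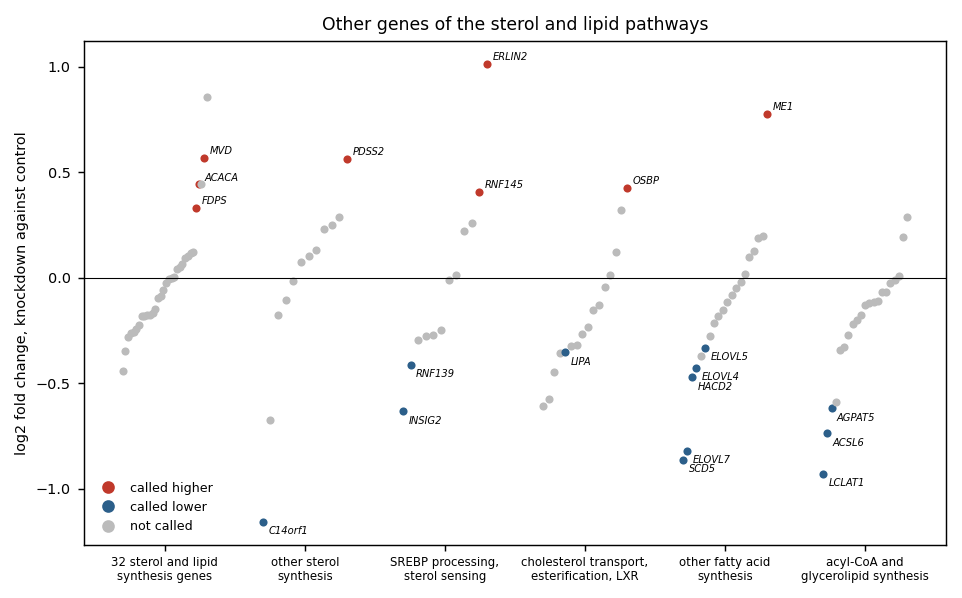
The vertical axis is the log2 fold change of knockdown against control, with 1 point per tested gene in the 32 sterol and lipid synthesis genes and in the 5 lists of other pathway genes, red where called higher, blue where called lower and grey where not called. *C14orf1* (-1.15) and *ERLIN2* (1.02) lie farthest from 0.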

How the data were processed

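RNA-seq of 6 HEK293 cultures was read from a table of counts per gene, which the authors deposited as whole numbers without normalization. The submitters' processing notes name FastQC 0.11.9, Trim Galore 0.6.6, STAR 2.7.9a, featureCounts 2.0.1 and the build hg38; the gene annotation, strand setting and handling of reads with several alignments are not given in the sources used here, and reads shared by overlapping genes therefore remain uncertain. Totals ran from 13900965 to 16869948 counts per culture, and the biological coefficient of variation was 12.4%. In the table, 13 gene names had become dates.

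Genes kept by filterByExpr were normalized with TMM and tested with the robust quasi-likelihood F test of edgeR 4.0.16 in R 4.3.3, over all 6 cultures and with no block. The Benjamini-Hochberg adjustment ran over the 14877 tested genes, which were called under 0.05 with no minimum fold change. Standard errors were taken from the F statistic and 95% intervals from its degrees of freedom. With 3 cultures per group, exact permutation cannot reach a two-sided p below 0.1 and was not used. No set test was run. Levels per kilobase used CPM on effective library sizes and the union of exons in GENCODE release 44 (GRCh38), where 23161 names matched by symbol and 1369 through a synonym, and motifs were searched in RefSeq promoter windows. The 15 alternative fits left out each culture, scaled by DESeq2 size factors or by library sizes alone, dropped the filter or raised it to 10 counts in each culture, added the replicate number as a block, used the Wald test of DESeq2 1.42.0 or limma-voom (limma 3.58.1), or removed each library's trend with transcript length and GC content (loess, span 0.3) without and with the block. Figures were drawn with matplotlib 3.10.9 in Python 3.11.15.

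The 32 genes, the other pathway lists and the fits were chosen with earlier results of these data known. All 32 genes were to be named, and from each other list at most 4 called genes by smallest p.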

Additional observations from a re-analysis of the deposited data

How the results depend on the processing

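Of 479 values of the 32 genes in the alternatives, 426 kept their direction and side of the threshold, 10 lost the call, 17 gained it and 26 changed sign, in 7 genes; the called genes of the other lists lost the call in 48 values and changed sign in none. The causes of these changes were not tested, and the fits that leave out a culture also have fewer samples.

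Genes of the 32 called lower numbered 0 as reported, 2 with no filter, 2 with DESeq2, 4 with the GC and length correction and 0 to 4 with 1 culture left out, and those called higher 0 to 4 with 1 culture left out. Other pathway genes called lower numbered 19 with the GC and length correction and 5 to 17 with 1 culture left out, and those called higher 2 to 7. Over all genes, 690 lower and 804 higher became 1397 and 1316 with the correction, and 233 to 1238 and 289 to 1274 with 1 culture left out, the largest counts being those without control replicate 2.

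Knockdown and control replicates of the same number did not deviate together (correlations of -0.199, -0.112 and -0.0438 for replicates 1, 2 and 3). For KD-1 and NC-1, which are knockdown replicate 1 and control replicate 3, the correlation was -0.0116. Neither the replicate numbers nor the numbers in the descriptions were therefore taken as pairs. With the replicate number as a block, 2 of the 32 genes were called higher (*MVD* and *ACACA*, not *FDPS*) and 0 lower, and 6 other pathway genes were called lower. With the replicate block and the GC and length correction together, 2 of the 32 genes were called lower, and 1105 of all genes.

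Among the genes that changed sign, *TM7SF2* had the log2 fold change of largest size with all 6 cultures, -0.17. Those of the others were at most 0.051 in size. *SREBF2* was -0.0168 with the GC and length correction and -0.0166 with the block added, and *LSS* -0.0382 and -0.0353. *FDFT1* was 0.0043 with library sizes alone. *FASN* was 0.0041 with DESeq2 size factors and with DESeq2, 0.0101 with library sizes alone and 0.0061 with at least 10 counts in every culture. With 1 culture left out, values ran from -0.021 to 0.1678 for *ACAT2*, -0.0631 to 0.0342 for *FDFT1*, -0.069 to 0.1155 for *LSS*, -0.2729 to 0.0422 for *TM7SF2*, -0.1091 to 0.0323 for *DHCR7* and -0.0511 to 0.0446 for *FASN*.

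Among the 10 genes of the highest level per kilobase, 6 were also among the 10 highest without division by length, and 11 genes had an NF-Y box when only the gene's own strand was searched, in place of 20 on both. *ABCA1* gave no value with at least 10 counts in every culture. At this depth the standard errors of the 32 genes ran from 0.086 to 0.64 on the log2 scale, the largest for *ABCA1*.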
